A study of Mus musculus with 12 samples.

Results

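The antisense 5′ flank small RNAs are the distinct sequences that the authors' deposited genic list for control DN3 thymocytes files under the 5′ flank of a transcript and in antisense orientation to it. They were taken by those 2 entries alone, and numbered 4451 of the 54267 distinct sequences in the list, or 8.20% (exact 95% binomial interval 7.97 to 8.44). They stood at 2332 of the 11185 genes in the list, a gene being a RefSeq accession with its symbol. Each entry is a distinct sequence and not a read, and the list gives no read number, so that neither abundance nor expression could be measured.

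DN3 thymocytes are early T cell precursors that lack CD4 and CD8. The cells were sorted by flow cytometry from the thymus of Lck-cre mice of a backcrossed C57BL/6 background, aged 6 to 7 weeks. RNAs of 19 to 30 nt were cut from a gel and cloned through 5′ phosphate and 3′ hydroxyl ends. The series holds 12 libraries from control, Drosha-deficient and Dicer-deficient cells, and the genic list belongs to 1 of them, the DN3 control. With 1 library there was no replicate error and no test between libraries, and each interval given here covers counting error only. In Lck-cre lines the promoter of Lck drives the recombinase, and copies of a promoter in a transgene cannot be told apart by sequence from the gene's own.

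Many mammalian promoters, mostly those rich in CpG, start RNA polymerase II in both directions. The transcript that runs away from the gene is usually short-lived and is called upstream antisense or promoter upstream RNA. Short RNAs near transcription starts have been described on both sides of such promoters, while microRNAs are made by a different route, through hairpins cut by Drosha and Dicer.

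The sequences below show the form the entries took at 7 genes, chosen after their values were seen: 5 of the genes with the most entries, 1 with entries packed into a short stretch (Osbpl8) and Lck. Of the sequences that share a 5′ end at a gene, the shortest and the longest of at most 30 nt are printed, and capitals mark the shortest one. Coordinates are the deposited ones, counted from 1, in a mouse build that is not given in the sources used here and is not GRCm38. The strand is that of the RNA, which is opposite to the gene's.
Polg, chr7:86611363-86611378, plus strand: GTCCTGCCGCGGTCGA
Polg, chr7:86611363-86611386, plus strand: GTCCTGCCGCGGTCGActtgtatg
Ilf2, chr3:90279843-90279860, minus strand: AGTGGGTAGCAGAGTGGC
Ilf2, chr3:90279831-90279860, minus strand: AGTGGGTAGCAGAGTGGCgcagcggaagcg
Sacm1l, chr9:123438604-123438621, minus strand: AGCACCGGGCCAGTGGCG
Sacm1l, chr9:123438592-123438621, minus strand: AGCACCGGGCCAGTGGCGcaatggataacg
Rps2, chr17:24856738-24856753, minus strand: TGGGCGTTCGTTGAAA
Rps2, chr17:24856725-24856753, minus strand: TGGGCGTTCGTTGAAAatcaccctcggct
B3gnt1, chr19:5038374-5038391, minus strand: GTGTGGGACGAGGTGGCC
B3gnt1, chr19:5038362-5038391, minus strand: GTGTGGGACGAGGTGGCCgagtggttaagg
Osbpl8, chr10:110601669-110601685, minus strand: GGTGATGGCGAGCTGTC
Osbpl8, chr10:110601664-110601685, minus strand: GGTGATGGCGAGCTGTCatgtc
Lck, chr4:129236032-129236054, plus strand: TTGGCGCGGCCCGGGTGGCTGTG
Lck, chr4:129236032-129236055, plus strand: TTGGCGCGGCCCGGGTGGCTGTGt
The 14 Ilf2 sequences at its printed 5′ end ran to lengths of 18 to 32 nt, and the 14 Rps2 sequences at theirs to 16 to 32 nt. B3gnt1 had 11 sequences at its printed end, Polg 8, Sacm1l 6, Osbpl8 4 and Lck 2. Such sets are ladders of 3′ ends behind a fixed 5′ end. RefSeq places a tRNA gene within 600 bases upstream of Ilf2, Sacm1l and B3gnt1. Whether their printed sequences came from that tRNA gene was not tested.

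The 5′ flank was the only category of the list in which antisense sequences outnumbered sense ones. Antisense sequences made up 56.8% of the 5′ flank (55.7 to 57.9), against 31.2% of introns, 22.7% of the 3′ flank, 14.3% of coding exons, 10.2% of 5′ UTRs and 8.25% of 3′ UTRs. The 4451 were 29.9% of the 14871 antisense sequences of all categories. They lay on 20 chromosomes, apart from 2 on unplaced sequence. At 208 of the 2332 genes, or 8.92%, they were the only sequences listed for the gene.

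The category places these sequences upstream of an annotated transcript, and how far upstream they start was measured where a reference allowed it. RefSeq promoter windows in build GRCm38.p6, from 250 bases before to 50 after each annotated start, were at hand for the genes of 3662 of them, and 1818 matched their window exactly at a single position. Their 5′ ends had a median position of -147, with quartiles of -187 and -105. Of these ends, 47 lay between 1 and 25 and 16 between 26 and 50, past the RefSeq start. Sense 5′ flank sequences had a median of -52 (1414 placed), with quartiles of -139 and -4.25. The window runs from -250 to 50 and had to hold the whole sequence, so only starts within it could be counted. An antisense sequence runs upstream from its 5′ end, so its starts near -250 were cut more than those of sense sequences. The bin from -250 to -226 held 45 antisense and 92 sense 5′ flank starts. No match in the window was found for 1766 antisense flank and 1295 sense 5′ flank sequences. Sense 5′ UTR sequences had a median of 14, but 1149 of 4741 could be placed and 3534 had no match, so that the end of the window at 50 limits their positions.

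**Figure D1:**
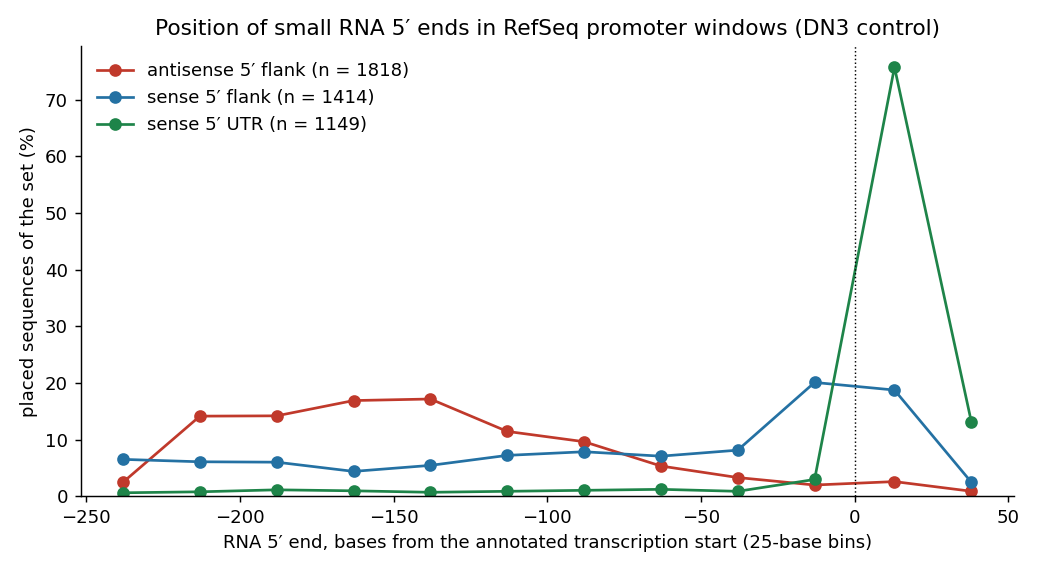
Percent of placed sequences (y axis) by the position of the RNA 5′ end relative to the annotated transcription start (x axis, bins of 25 bases), for 1818 antisense 5′ flank, 1414 sense 5′ flank and 1149 sense 5′ UTR sequences. Only starts within the window were counted, and antisense starts near -250 were cut more than sense ones. Within it, antisense sequences peak at 17.2% in the bin from -150 to -126. The placed sense 5′ UTR sequences, for which the window ends at 50, have a median of 14.

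Distances within the deposited coordinates do not depend on that window, but the list's own 5′ flank category, whose width is not given in the sources used here, limits them and sets their direction. At the 832 genes with both kinds of sequence, the 5′ ends of 1748 antisense flank sequences were measured from the farthest upstream 5′ end of a sense 5′ UTR sequence of the same gene. The median distance was 306 bases upstream, with quartiles of 216 and 400, and 89.1% lay 100 to 500 bases upstream. In 5 sequences the distance was 0 or negative, and in 10 it was over 1000 bases.

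Sense 5′ UTR sequences were listed for 832 of the 2332 genes, or 35.7% (33.7 to 37.7), which is 28.9% of the 2875 genes with such a sequence. Over all genes of the list the share was 25.7%, and over the 8853 genes without an antisense flank sequence it was 23.1% (22.2 to 24.0). The share was 25.1% of genes with antisense intron sequences and 30.5% of genes with sense 5′ flank sequences. A gene enters the list only by having a sequence, so genes with none of any kind stand in no share. A sense 5′ flank sequence stood at 606 of the genes (26.0%), and at 17.6% of all genes of the list. A sense sequence in the 5′ UTR or the 5′ flank stood at 1216 (52.1%), and at 37.9% of all genes. With sense coding sequences counted too there were 1558 (66.8%), and 55.4% of all genes.

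The share with a sense 5′ UTR sequence was 31.6% of the 1375 genes with 1 antisense flank sequence, 40.7% of the 501 with 2, 39.2% of the 245 with 3 and 45.4% of the 141 with 4 or 5. It was 46.0% of the 50 genes with 6 to 9 sequences, and 10 of the 20 genes with 10 to 52 had one. The intervals of these 2 classes are wide, 31.8 to 60.7 and 27.2 to 72.8, and overlap those of all other classes.

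**Figure D2:**
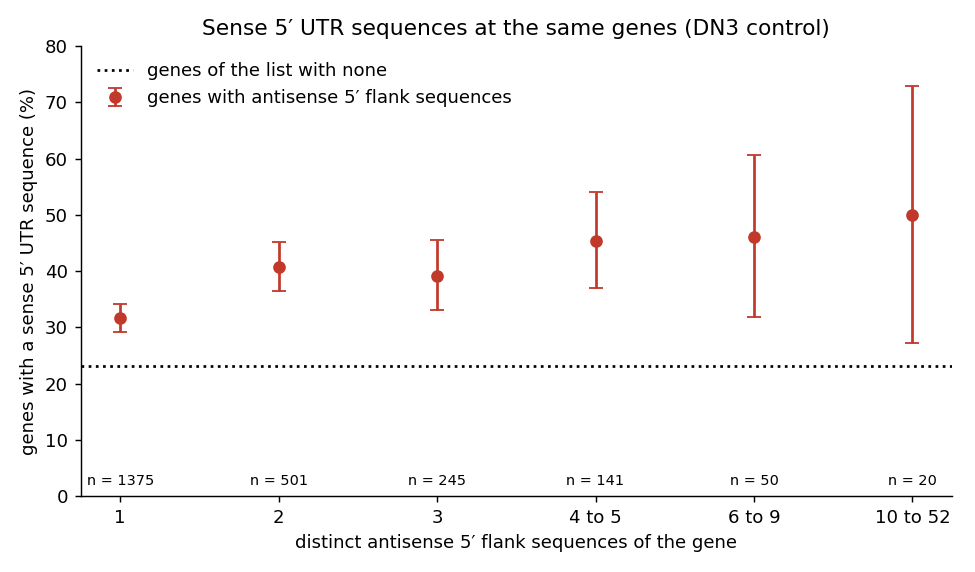
Percent of genes with a sense 5′ UTR sequence (y axis) by the number of distinct antisense 5′ flank sequences of the gene (x axis); points are shares and bars exact 95% binomial intervals. All 6 classes lie above the dotted line at 23.1%, the share of genes with no antisense flank sequence.

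Most genes had few entries. The mean was 1.91 distinct sequences per gene, 957 genes (41.0%) had at least 2, and the 10 leading genes held 269 sequences, or 6.04% of all. Joining sequences on a strand that lay at most 100 bases apart gave 822 clusters of at least 2 sequences, 368 of at least 3 and 16 of at least 10, beside 1823 single sequences. The clusters held 2628 sequences (59.0%), with a median span of 63 bases, quartiles of 36 and 106 and a longest span of 305. By the same joining, 52.3% of sense 5′ flank, 68.3% of sense 5′ UTR and 29.7% of antisense intron sequences fell in clusters. A 5′ end was shared by 423 sequences (9.50%), at 161 ends, and a 3′ end by 292 (6.56%). These shares were 12.9% and 10.5% for sense 5′ flank, 15.2% and 12.3% for sense 5′ UTR, and 5.58% and 4.24% for antisense intron sequences.

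Polg, which encodes the catalytic subunit of the mitochondrial DNA polymerase, led with 52 sequences from 30 5′ ends over 282 bases. All 52 lay within Gm10616, a GENCODE transcript on their strand. Ilf2, a double-stranded RNA binding protein, had 44 sequences. Sacm1l, a phosphoinositide phosphatase, had 33. Lta4h, the hydrolase that makes leukotriene B4, had 27 and Casc5, a kinetochore protein, 26. Rps2, a protein of the small ribosomal subunit, had 23 sequences from 8 5′ ends, of which 6 lay within Snhg9, an annotated antisense host transcript. B3gnt1, a glycosyltransferase, had 22 sequences from 6 5′ ends.

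The leading genes differed in how their sequences were laid out. Osbpl8, an oxysterol-binding-protein relative at the endoplasmic reticulum, had 10 sequences within 23 bases, with all 5′ ends between -175 and -172. Arl15, a small GTPase, had 15 over 337 bases, and Polr2a, the largest subunit of RNA polymerase II, had 14 over 264 bases beside 41 sense 5′ flank sequences. Ccnt1, the cyclin of an elongation kinase, Taf4a, a TFIID subunit, and Prmt5, an arginine methyltransferase, had 13 each. Lck had 13, Pigm and Plekhg2 had 12 each, Epc1 had 11, and Etf1 and Trp53bp2 had 10 each.

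**Figure D3:**
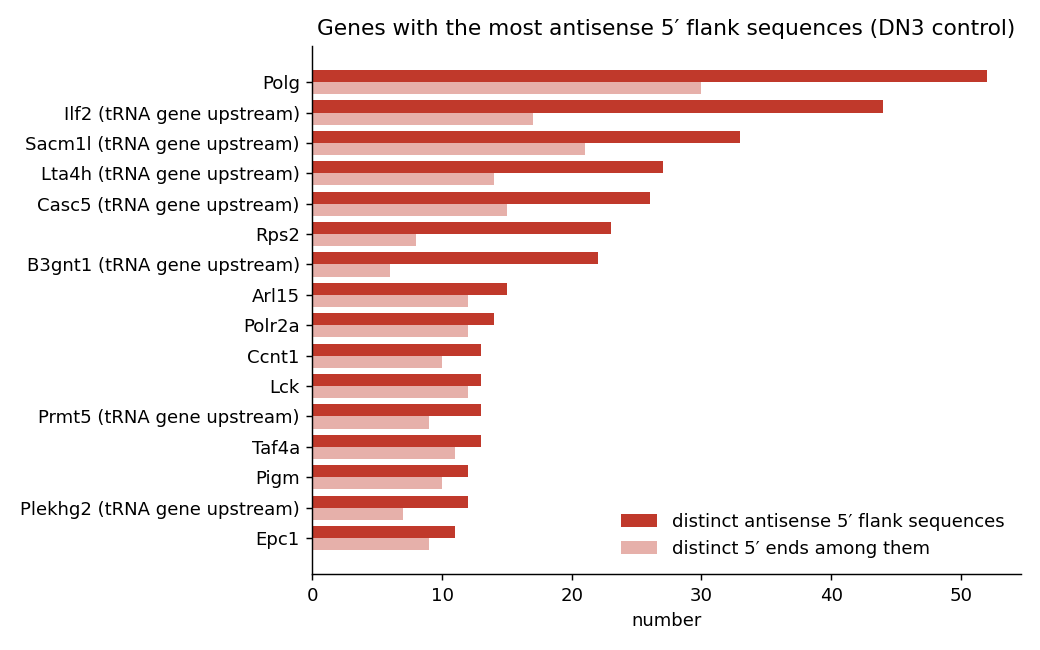
Number of distinct antisense 5′ flank sequences (dark bars) and of distinct 5′ ends among them (light bars) at the genes with at least 11 sequences; labels mark genes with a RefSeq tRNA gene upstream. Ilf2 had 44 sequences from 17 ends and B3gnt1 22 from 6, while Lck had 13 from 12.

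Several leading genes stand next to a tRNA gene. RefSeq (GRCm38.p6) places a tRNA gene within 600 bases upstream of 10 of the 2301 matched genes with antisense flank sequences, or 0.435% (0.209 to 0.798), and of 16 of the 8706 other matched genes, or 0.184% (0.105 to 0.298). Among the 19 matched genes with at least 10 sequences there were 7, or 36.8% (16.3 to 61.6): Ilf2, Sacm1l, Lta4h, Casc5, B3gnt1, Prmt5 and Plekhg2. Among the 1357 matched genes with 1 sequence there were 0. This window was chosen after the sequences had been seen, and the table gives no strand for these neighbours.

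The 10 genes next to a tRNA gene held 194 of the sequences (4.36%). A 5′ end was shared by 67.0% of these (59.9 to 73.6), and 11 of them (5.67%) were 18 nt long. Ilf2 alone had 14 at 1 end and B3gnt1 11. Sequences at the same end are not independent, so the intervals of shared 5′ ends given here are too narrow. Those of first bases are too narrow for the same reason. Other intervals over sequences may be too, since 59.0% of all antisense flank sequences lay in clusters. Of the 2301 matched genes with antisense flank sequences, 23 had a tRNA, microRNA, snoRNA or snRNA gene wholly within the 600 bases upstream. Their share was 0.9996% (0.635 to 1.496). Of the 8706 other matched genes, 32 had one, or 0.368% (0.252 to 0.518). Without the 23 genes, 4224 sequences at 2309 genes were left. Of these, 6.68% (5.94 to 7.47) shared a 5′ end and 845 were 18 nt long. Clusters of at least 2 sequences then numbered 805, but clusters of at least 10 numbered 9, against 16 with all genes. Whether sequences at these genes came from the neighbouring RNA gene was not tested.

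**Figure D4:**
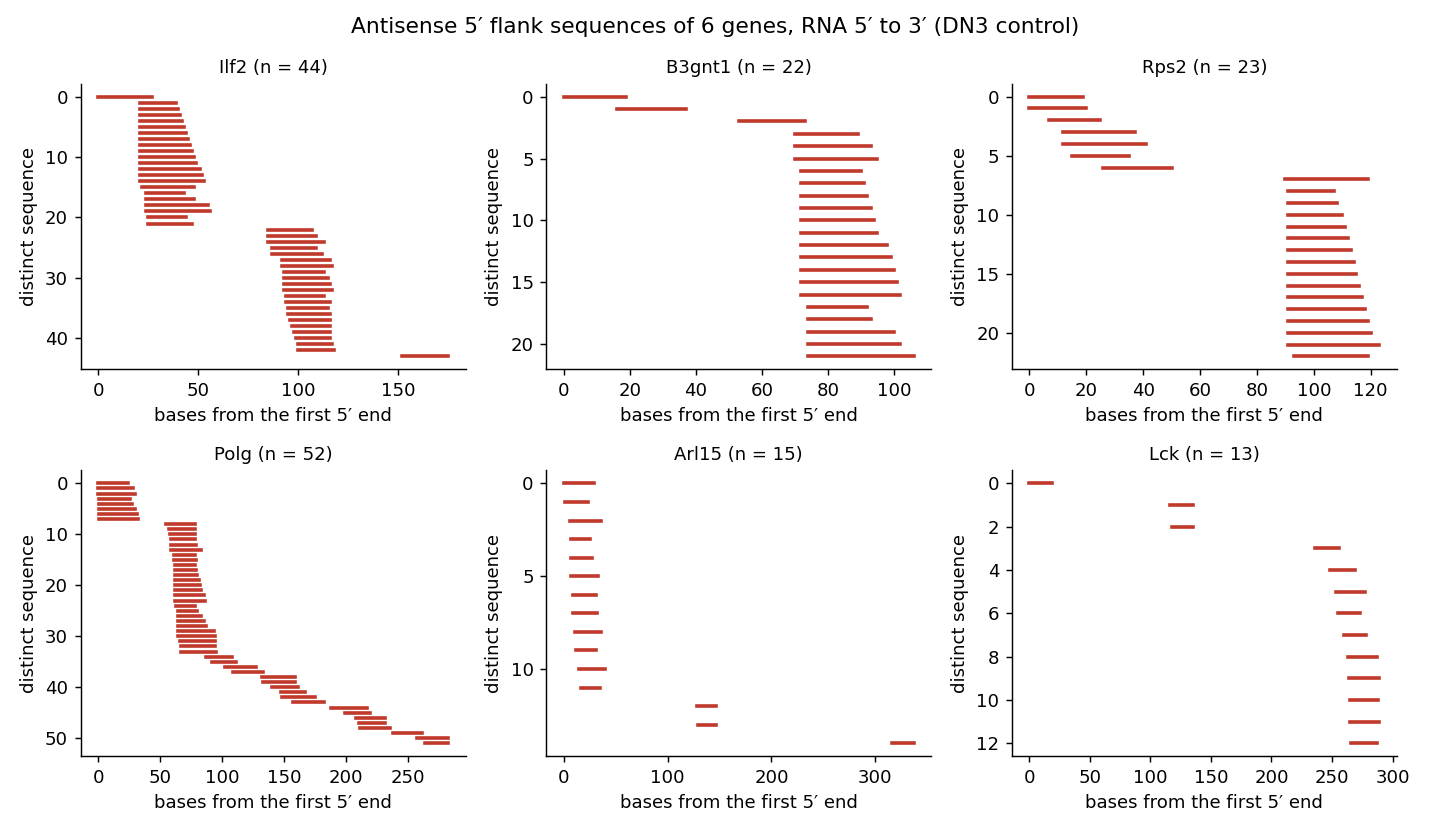
Antisense 5′ flank sequences of 6 genes, each line 1 distinct sequence drawn to scale along the RNA from the first 5′ end (x axis, bases; y axis, order of the sequence from 0). Ilf2, B3gnt1 and Rps2 hold 14, 11 and 14 sequences at a single 5′ end, while Polg, Arl15 and Lck spread over 12 to 30 ends.

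A GENCODE M21 transcript on the strand of the RNA held 729 of the antisense flank sequences, or 16.4% (15.3 to 17.5), at 358 genes. The share was 10.4% of antisense 5′ UTR and 4.44% of antisense intron sequences. For sense 5′ flank sequences it was 50.4%, mostly in protein-coding transcripts (48.0% of the set). The antisense flank sequences lay in transcripts typed antisense for 213, unchecked (TEC) for 145, protein-coding for 133 and lincRNA for 75. Bidirectional promoter lncRNA and processed transcript held 71 each. Taf4a, Ccnt1 and Trp53bp2 had all their 13, 13 and 10 sequences within 4921531C22Rik, 9330020H09Rik and Gm10517, in that order. A protein-coding gene that starts within 1000 bases in the opposite direction was annotated at 4.50% of the genes with antisense flank sequences (3.69 to 5.43) and at 11.6% of the other genes (10.9 to 12.3). Each sequence stands under 1 gene of the list only.

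The antisense flank sequences had no single length. They ran from 15 to 33 nt, with a median of 21 and quartiles of 19 and 24. The most frequent length was 18 nt, with 862 sequences (19.4%), which lies below the cloned range, as did 24.5% of the sequences. Lengths of 20 to 23 nt made up 35.7% (34.3 to 37.2), beside 36.6% of sense 5′ flank, 37.5% of sense 5′ UTR and 27.6% of antisense intron sequences. In the authors' deposited microRNA list for the same library, 68.9% of 893 guide sequences had these lengths.

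**Figure D5:**
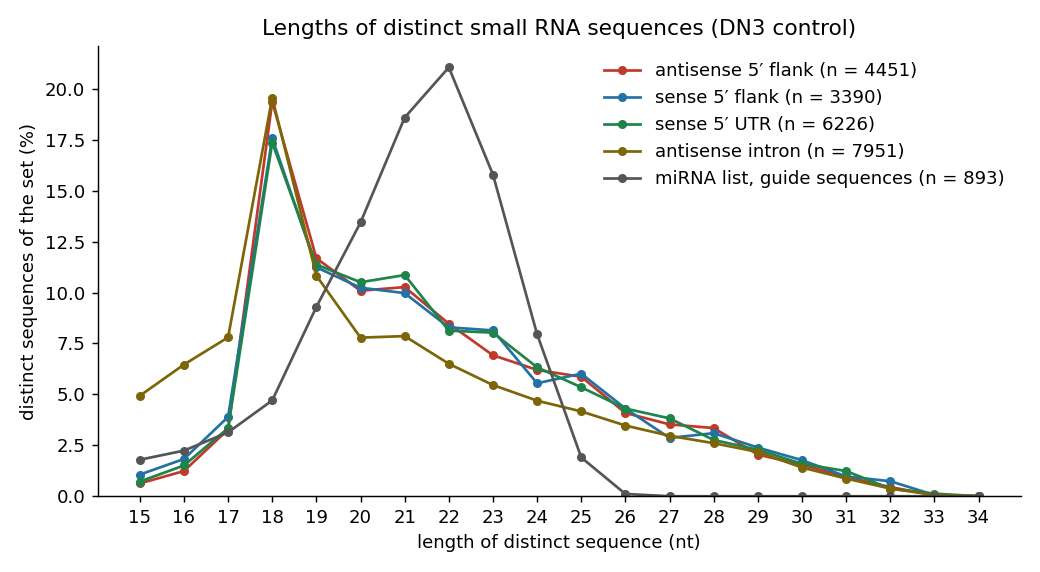
Percent of distinct sequences (y axis) by length in nt (x axis) in 4 categories of the genic list and among the guide sequences of the microRNA list. The 4451 antisense 5′ flank sequences follow the sense 5′ flank and 5′ UTR curves, with 19.4% at 18 nt, while the 893 microRNA guides peak at 22 nt.

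G was the most frequent first base, at 31.7% (30.3 to 33.1), before A at 27.1%, C at 23.3% and T at 17.9%. The microRNA guides had T at 46.1% and G at 6.83%. Mean GC content was 59.8 ± 12.2% (SD over 4451 sequences), beside 63.6 ± 12.6% for sense 5′ flank, 64.4 ± 12.5% for sense 5′ UTR, 54.6 ± 13.2% for antisense intron and 45.0 ± 9.19% for microRNA guides. First bases varied with length: G opened 38.9% of the 18 nt sequences and 29.9% of those of 19 nt and longer, and C opened 15.7% and 25.6% of them.

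None of the 4451 was identical to, or contained in, a sequence of the 6 deposited microRNA lists for control, Drosha-deficient and Dicer-deficient DN3 thymocytes and regulatory T cells, which hold 916 to 1080 distinct sequences each. None of the 54267 was identical to one either. The genic and microRNA lists may have been kept apart when they were made. The absence therefore says nothing particular to the antisense flank sequences. Some antisense flank sequences still lay in hairpins that RefSeq annotates as microRNA genes: 8 of 9 at Mpdu1 in Mir1934, 2 of 2 at Dnajb9 in Mir5627, 1 of 1 at Zfp27 in Mir7668 and 4 of 5 at 1810009A15Rik in Mir5136. By GENCODE, microRNA transcripts held 15 of the 4451 (0.337%), and 15 of the 3390 sense 5′ flank sequences (0.442%). They held 0.0755% of antisense intron and 0.0321% of sense 5′ UTR sequences. The mature microRNAs that a listed sequence equals are shown from RefSeq (GRCm38.p6), with the seed, bases 2 to 8, in capitals.
mmu-miR-1934-5p, at Mpdu1: uCUGGUCCccugcuucguccucu
mmu-miR-1934-3p, at Mpdu1: aGGAUGACgguggggcugguga
mmu-miR-7668-3p, at Zfp27: cGGUGCAGgggauucagaggag
mmu-miR-5627-3p, at Dnajb9: aCAGGGCUcuccggcgccccucgu
No seed is shared among these 4, and each was matched by 1 listed sequence in full.

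The check of the cell type rested on sense exon sequences of marker genes. Of 14 markers of DN3 thymocytes, 12 had such sequences, 113 in all, and Ptcra had no entry. Later T cell markers had 0 of 7, B cell 0 of 5, myeloid 0 of 5, erythroid 0 of 6 and fibroblast 0 of 4, while thymic epithelium had 1 of 4 with 1 sequence. Entries of any other kind stood at 3 of the 7 later T cell markers and 2 of the 5 B cell markers. Among these, Ccr7, a chemokine receptor of later T cells, had 3 antisense flank sequences.

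Of 30 T-lineage genes, 28 were in the list and 8 had antisense flank sequences, which stood at 20.8% of all genes of the list. Sense 5′ UTR sequences stood at 17 of the 28, and at 25.7% of all genes. Both stood at 5 of the 28, and at 832 of all 11185 genes. Lck, the Src-family kinase of T cell receptor signalling, had 13 antisense flank sequences, beside 21 sense 5′ UTR and 17 sense 5′ flank sequences. This was the most of any gene by the smaller of its antisense flank and 5′ UTR counts. Cd3e, a chain of the T cell receptor complex, had 6, of which the placed ones started between -227 and -136. Ets1 and Myb, both transcription factors, had 2 each, and Cd3d, Cd3g, Tcf12 and Tcf7 1 each. Notch1, Rag1 and Gata3, which act at the DN3 stage, had 4, 4 and 6 sense 5′ UTR sequences and no antisense flank sequence.

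After Lck, genes with many sequences on both sides included Klf6, a zinc finger transcription factor, with 7 antisense flank and 6 sense 5′ UTR sequences, and Spty2d1, a histone chaperone, with 6 and 7. Hnrnpab, an RNA-binding protein, had 5 and 12, and Top2b, a DNA topoisomerase, 5 and 8. Utx, a histone demethylase, had 5 and 7, Ccdc15 5 and 6, and Capn7, a calpain protease, and the transcription factor Myc 5 and 5 each. At Klf6 the antisense flank 5′ ends lay 310 to 335 bases upstream of the first sense 5′ UTR end, and at Myc 398 to 685 bases.

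Of 18 proliferation genes, 17 were in the list and 6 had antisense flank sequences, 12 sequences in all, led by Myc with 5. Of 20 transcription and splicing genes, 14 were in the list and 8 had them, 31 sequences in all, led by Polr2a with 14. Of 14 names for the small RNA machinery, 7 were in the list and 3 had 1 sequence each: Dgcr8, the partner of Drosha, Eif2c2, an Argonaute protein, and Tarbp2, a partner of Dicer. Antisense flank sequences stood at 18 of 78 ribosomal protein names, 16 of 61 histone names and 0 of 7 snoRNA host genes. Over the whole list the share of genes with them was 20.8%. The ribosomal protein names were picked by pattern. Rplp1, with 8 antisense flank sequences, was not counted, and Rps6kl1, with 0, was.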

How the data were processed

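Small RNAs of 19 to 30 nt were cloned from DN3 thymocytes, and adaptors were clipped before mapping, per the labels' protocols. The aligner, annotation and genome build are not given in the sources used here. Positions, a category, an orientation and a gene are deposited per distinct sequence in the genic list, without read numbers. The deposited microRNA lists give a normalized mapping score per sequence, and here only their sequences were used. Deposited starts count from 0: 91 of 4449 placed sequences nearly coincided with GRCm38, each exactly 1 lower, and 4358 lay elsewhere.

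Python 3.11.15, pandas 2.3.3 and scipy 1.17.1 were used. Sequences were matched exactly to RefSeq promoters and hairpins (GRCm38.p6) and to GENCODE M21 transcripts. Of 11185 genes, 11007 were matched to RefSeq. Clusters joined sequences at most 100 bases apart. Intervals are exact Clopper-Pearson at 95%. Scripts were tested on simulated data. Members and lists were chosen with earlier results of these data known. Named genes are the 20 with the most sequences, the 10 highest by the smaller of antisense flank and 5′ UTR counts, and list members, some of which are not reported here; others were chosen after their values were seen. Alternatives covered lengths, weights, categories, cluster gaps and neighbouring RNA genes.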

Additional observations from a re-analysis of the deposited data

How the results depend on the processing

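Of 43 alternative values, 32 stayed within the interval, the SD or 1.5 times of the value reported, and 11 moved. Some of the 32 could not differ, since each sequence stands in the list only once. Settings on distinct sequences, on other categories and on shared sequences therefore returned the reported value. Median length and mean GC were held to the SD over sequences, a wide limit. The 32 are thus no measure of robustness. With sequences of 19 to 30 nt only, a setting chosen after seeing the data, the share of antisense 5′ flank sequences was 8.49%, the share of 20 to 23 nt 48.3%, the share opening with G 29.9% and the share of genes with a sense 5′ UTR sequence 31.5%, when that of all genes in the list was 25.4%. Without genes with a structured RNA gene upstream, also chosen after seeing the data, the share of the list was 7.84%. Genes with at least 2 sequences numbered 957, of which 397 (41.5%) had a sense 5′ UTR sequence. Counting sense coding and 5′ flank sequences too gave 1558 genes (66.8%), when that of all genes in the list was 55.4%. Clusters of at least 3 numbered 368. These settings count fewer or more items by construction. The planned settings that keep single mapped positions or drop the most abundant sequence gave no value, since the list holds neither mapping numbers nor abundances. No library could be left out, since there is 1. No paired analysis was possible because the genic list belongs to 1 library. The depth of the library is unknown, so that a gene with no sequence was not detected rather than shown to have none.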
